A study of Mus musculus with 30 samples.

Results

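Myotubes that had lost their serum but received metformin and leucine together (MET+LEU) were compared across all genes with myotubes that stayed in 2% horse serum (2% HS). The comparison rested on 12 of the 30 libraries of the series, 6 in each group, chosen by the treatment named in their labels. C2C12 is a mouse myoblast line whose cells fuse into contractile myotubes when serum is lowered. All cells of both groups were wild type, were differentiated for 4 days in low-glucose medium with 2% horse serum, and were then treated for 4 days, so that each culture was 8 days old. The 2% HS group kept its serum. The MET+LEU group had none and received 100 nM metformin and 500 nM leucine, and the serum-deprived group (SD), which had neither serum nor compounds, is given beside it where it helps. Total RNA depleted of ribosomal RNA was sequenced. The labels number the replicates 1 to 6 but do not say whether they were separate cultures, so the p-values measure the spread between these libraries, which may be technical.

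Horse serum supplies growth factors, hormones, lipids and binding proteins, and its removal makes myotubes shrink. Metformin is a biguanide used against type 2 diabetes that acts on mitochondria and the energy sensor AMPK, and leucine is an amino acid that activates the growth kinase mTORC1. Among the pathways described below, hypoxia-inducible factors (HIF) raise glucose uptake, glycolysis and vessel growth genes when oxygen is short, and the factor ATF4 of the integrated stress response raises genes for amino acid supply.

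Each MET+LEU library held between 13926677 and 18322581 counts on genes, and each 2% HS library between 12784960 and 19604103. MET+LEU replicate 6 stood apart from the other 5. Nuclear ribosomal RNA took 5.85% of its counts, against 0.659% to 1.96% in MET+LEU replicates 1 to 5 and 0.217% to 0.702% in 2% HS. The mitochondrial ribosomal RNAs took 7.64% of its counts, against 0.649% to 0.760% in the other MET+LEU libraries and 0.219% to 0.306% in 2% HS. Counts on protein-coding genes came to 80.4% in that library. Results are therefore given with it and without it. All 12 myotube markers were detected, and their summed level ran from 40073 to 42885 CPM (counts scaled by the size of the library) in 2% HS and from 31526 to 39228 CPM in MET+LEU. Titin (Ttn) made up most of that sum, with 29100 to 32538 and 20495 to 29091 CPM, and 4 of the 12 markers were higher (Tnnt3, Tnni2, Des and Chrna1) and 6 lower. Markers of adipocytes, endothelial cells and leukocytes were mostly under 1 CPM in all 12 libraries (5 of 6 in each list), with Lep, Emcn and Adgre1 at 0 counts. In bulk samples, fewer cells of a type and less RNA per cell cannot be told apart.

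The MET+LEU myotubes still differed from the serum-fed ones at many genes, mostly by small amounts. Of 15907 genes tested, 3510 were higher (22.1%) and 3224 lower (20.3%) in MET+LEU (edgeR quasi-likelihood test, adjusted p under 0.05), which is 42.3% of the genes in either direction. Only 501 of them, 227 higher and 274 lower, changed at least 2-fold (3.15% of the genes tested), of which 276 had a mean CPM under 1 on the log2 scale. This count depended on the filter on low counts, with 204 genes when every library needed at least 10 counts and 908 when more than 5 counts in total were enough. The median size of a called change was 0.32 on the log2 scale, and 5197 called genes (77.2%) changed by under 1.5-fold. The libraries of both groups did not overlap at 3346 genes, 11.5% of the genes tested being higher and 9.51% lower. Without MET+LEU replicate 6, 3217 of 16062 genes were higher (20%) and 3289 lower (20.5%), which was 40.5% in either direction, with 524 at least 2-fold. Of the 6734 genes called with it, 6038 (89.7%) were called in the same direction without it, 0 in the opposite direction, and 490 of the 501 genes that changed at least 2-fold remained called. The median log2 fold change over all genes was -0.01 with that library and -0.02 without it.

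**Figure D1:**
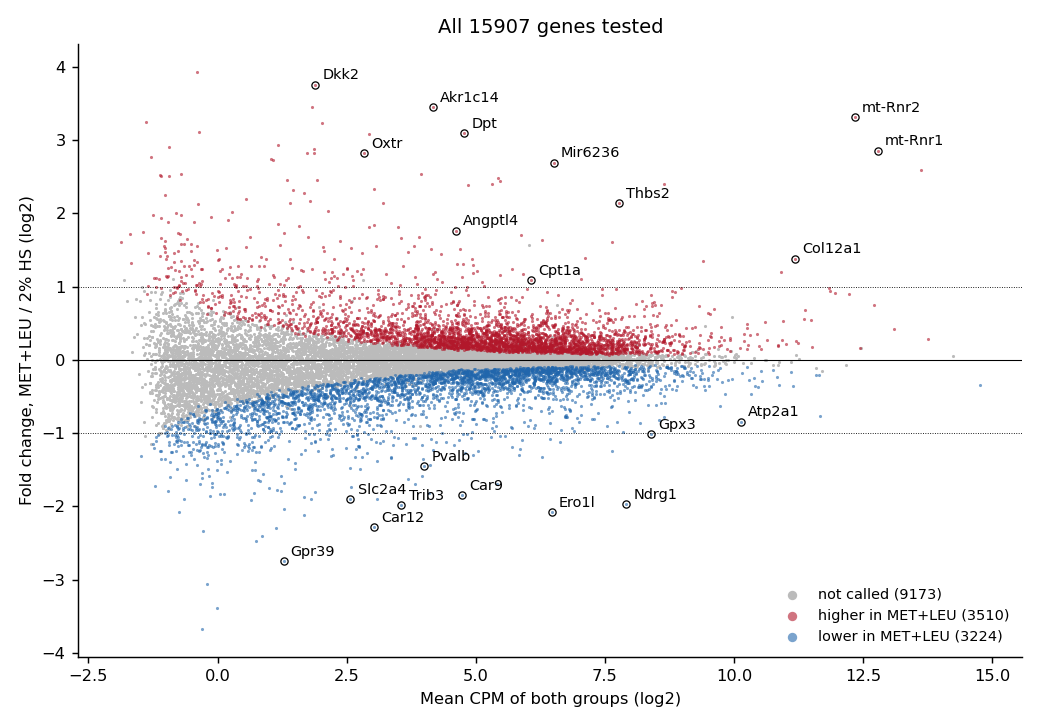
Each point is a gene, with the mean CPM of both groups on the x axis (log2) and the log2 fold change of MET+LEU against 2% HS on the y axis; red and blue points passed the test and the dotted lines mark 2-fold changes. The 501 called genes beyond the dotted lines lie mostly at low levels (median 0.70 on the x axis, against 4.93 for all 6734 called genes), and most called genes lie between those lines.

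For comparison, SD vs. 2% HS had 2211 genes higher (13.9%) and 2213 lower (13.9%), and MET+LEU vs. SD had 1690 higher (10.6%) and 1241 lower (7.80%), or 7.58% and 5.96% without MET+LEU replicate 6. Both share libraries with MET+LEU vs. 2% HS and are given only side by side. Counts of list members below stand against these shares, and against 22.1% higher and 20.3% lower in MET+LEU vs. 2% HS.

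The largest falls in MET+LEU included genes that HIF is known to induce. The promoter windows of a pair of them, and of a pair of ATF4 target genes, are shown first because most listed members of these groups were lower. Each window is the 250 bases before the annotated start (RefSeq, GRCm38.p6), and each pair had the largest falls among members of its group whose window held a match, chosen after the values were seen. Ero1l is at chr14:45318573-45318822 (minus strand) and Car9 at chr4:43506776-43507025 (plus strand), with the HIF core motifs ACGTG and GCGTG in capitals on either strand. Fgf21 is at chr7:45615491-45615740 (minus strand) and Chac1 at chr2:119350992-119351241 (plus strand), with the ATF4 composite motif TGATGNAA in capitals on either strand (their HIF core letters are left in lower case).
Ero1l: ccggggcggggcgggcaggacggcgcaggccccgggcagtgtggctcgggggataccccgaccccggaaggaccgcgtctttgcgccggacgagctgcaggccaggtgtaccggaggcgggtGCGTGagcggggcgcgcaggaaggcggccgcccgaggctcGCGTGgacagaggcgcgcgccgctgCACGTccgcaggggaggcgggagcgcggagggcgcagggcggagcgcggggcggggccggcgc
Car9: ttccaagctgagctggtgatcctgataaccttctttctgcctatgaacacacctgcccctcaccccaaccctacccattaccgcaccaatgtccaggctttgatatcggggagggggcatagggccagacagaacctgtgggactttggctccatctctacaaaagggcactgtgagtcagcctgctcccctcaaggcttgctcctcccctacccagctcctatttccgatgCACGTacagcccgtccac
Fgf21: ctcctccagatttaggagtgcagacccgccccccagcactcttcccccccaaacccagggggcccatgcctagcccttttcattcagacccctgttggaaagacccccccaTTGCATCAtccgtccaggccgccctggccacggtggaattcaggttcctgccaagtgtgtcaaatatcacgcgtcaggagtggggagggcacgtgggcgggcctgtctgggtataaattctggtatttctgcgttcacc
Chac1: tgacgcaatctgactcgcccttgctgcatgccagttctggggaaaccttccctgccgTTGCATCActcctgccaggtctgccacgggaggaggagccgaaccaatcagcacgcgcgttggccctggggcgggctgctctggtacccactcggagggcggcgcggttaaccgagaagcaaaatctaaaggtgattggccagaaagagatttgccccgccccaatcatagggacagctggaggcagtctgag

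The Car9 match ended 13 bases before the RefSeq start, and the Ero1l matches 58, 83 and 123 bases before it. GENCODE M21 places the starts at 43506966 for Car9 and 45318771 for Ero1l, so these matches lie inside both genes by that annotation. The TGATGNAA matches ended 131 bases before the RefSeq start of Fgf21 and 185 bases before that of Chac1. ACGTG or GCGTG was found in the first window of 24 of the 27 lower hypoxia-inducible genes that had one (88.9%), against 5884 of 10427 tested genes (56.4%) and 38.6% of all 32851 windows. These motifs contain CpG, and the median GC content of the windows was 64.4%, 60.0% and 52.4% in these sets. TGATGNAA was found in 5 of the 17 lower stress response genes with a window (29.4%), against 1.89% of tested genes and 3.45% of all windows. The genes counted were listed for known HIF or stress response roles and had fallen, and listed members that did not fall were not counted. These shares therefore cannot show whether the motifs go with a fall. A letter match is a description of the window only. ACGTG on both strands of CACGTG was counted as a pair of matches.

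Genes on the hypoxia-inducible list were lower almost throughout. This list was written after the values had been seen, so its counts describe it only. It does not hold every gene that HIF can induce, and Angptl4, a HIF-inducible gene not on it, rose by 1.76. Of 37 genes tested, 31 fell and 1 rose (Plod2, a collagen lysyl hydroxylase, by 0.17), and the median log2 fold change was -0.38. Without MET+LEU replicate 6, 30 fell and 1 rose, with a median of -0.40.

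Ndrg1, a stress-responsive growth regulator at chr15:66929318-66969640 (minus strand), had a lowest, median and highest level of 333, 369 and 482 CPM in 2% HS and of 81.2, 96.9 and 117 CPM in MET+LEU. Every MET+LEU library was below every 2% HS library, and the means were 386 ± 54.2 and 98.3 ± 14.9 CPM (SD, n = 6 each). The log2 fold change was -1.97 ± 0.19 (SE, edgeR adjusted p = 5.2e-09), and -1.93 without replicate 6. Ero1l, the oxidase that drives disulfide bond formation in the endoplasmic reticulum (ER), ran from 119 to 176 CPM in 2% HS with a median of 139, and from 28.4 to 42.2 CPM in MET+LEU with a median of 32.8. The groups did not overlap, and the log2 fold change was -2.08 ± 0.18 (SE, edgeR adjusted p = 7.0e-10). Car9, a cell-surface carbonic anhydrase and a widely used hypoxia marker, had a lowest, median and highest level of 35.1, 39.0 and 50.9 CPM in 2% HS and of 6.97, 11.7 and 14.4 CPM in MET+LEU. It fell by 1.85 on the log2 scale (SE 0.21) with no overlap, and by 1.76 without replicate 6, its lowest MET+LEU library. Car12, another carbonic anhydrase, fell by 2.28 (SE 0.16), from 13.6 ± 1.87 to 2.79 ± 0.757 CPM. Its window held neither HIF core motif. The rule that named Ndrg1, Ero1l, Car9, Car12, Trib3 and Slc2a4 among the largest falls required no overlap. Their lack of overlap is therefore not a separate result.

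The list also holds secreted and signaling genes. Adm (adrenomedullin, a vasodilator) fell by 1.58 and Vegfa, the main vessel growth factor, by 0.86, both named after their values were seen. Ddit4, an mTORC1 inhibitor, fell by 1.30 (SE 0.10), from 43.7 ± 3.54 to 17.6 ± 3.96 CPM. The gene for HIF1A itself was lower by 0.13 (adjusted p = 0.024), far less than the genes above. With SD set against 2% HS, 27 of 37 members were lower (median -0.40), beside 13.9% of all genes tested. With MET+LEU set against SD, 3 of 37 were lower (median -0.07), near the 7.80% of all genes tested. Ndrg1 was at 132 ± 43.3 CPM in SD, with a log2 fold change of -0.42 in MET+LEU vs. SD (edgeR adjusted p = 0.14).

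**Figure D2:**
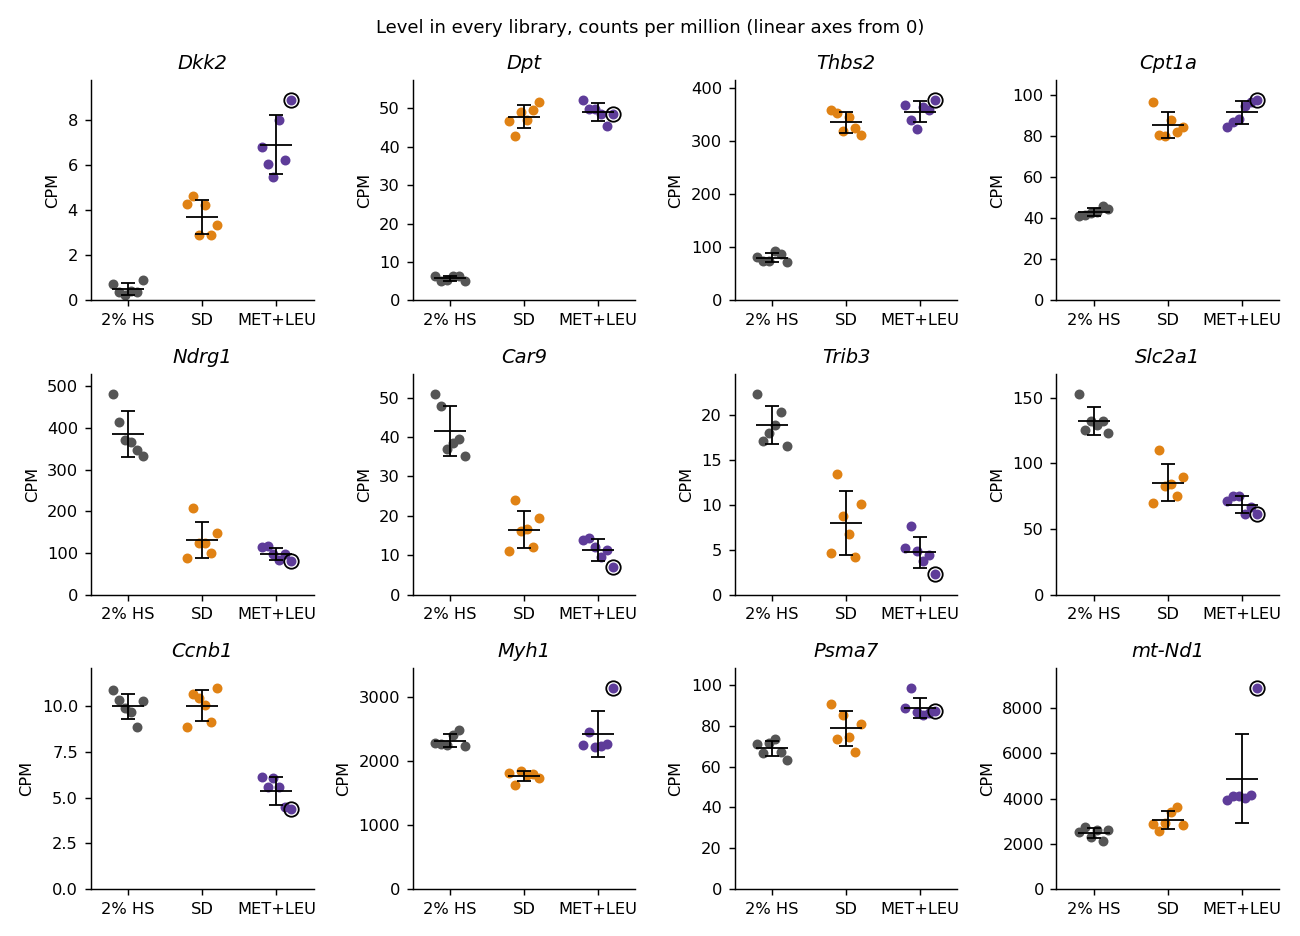
Points are the CPM of single libraries in 2% HS, SD and MET+LEU for 12 genes on linear axes from 0, horizontal bars are means, error bars are SD (n = 6) and the circled point is MET+LEU replicate 6. Ndrg1, Car9, Trib3 and Slc2a1 are below every 2% HS library in all MET+LEU libraries, Ccnb1 is near 10.0 CPM on average in 2% HS and SD and lower in MET+LEU, and replicate 6 stands far above the others at mt-Nd1 and Myh1.

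Glucose uptake and glycolysis genes were lower too. Of 24 tested, 20 fell and 0 rose (median -0.36), and without MET+LEU replicate 6 19 fell and 0 rose (median -0.32). Slc2a4, which encodes the insulin-regulated glucose transporter GLUT4, had a lowest, median and highest level of 8.50, 9.22 and 10.9 CPM in 2% HS and of 1.62, 2.56 and 3.30 CPM in MET+LEU. This was a fall of 1.90 (SE 0.15, edgeR adjusted p = 2.9e-14) with no overlap. Slc2a1, the gene of the basal transporter GLUT1, fell by 0.95 (SE 0.10), from 133 ± 10.5 to 68.5 ± 6.33 CPM, and Pfkfb3, which makes an activator of phosphofructokinase, by 1.05 (SE 0.11). Members along the pathway moved less, with falls of 0.84 for Hk2, 0.64 for Eno1, 0.36 for Gapdh, 0.24 for Ldha and 0.15 for Pkm. Several of these genes are also on the hypoxia list. With SD set against 2% HS, 19 of 24 members were lower, beside 13.9% of all genes tested. With MET+LEU set against SD, 5 were lower and 1 higher, beside 7.80% and 10.6% of all genes tested.

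Genes of the integrated stress response and of amino acid supply were lower as well. Of 29 tested, 21 fell and 1 rose, with a median of -0.40, and without MET+LEU replicate 6 21 fell and 0 rose, again with a median of -0.40. Trib3, a pseudokinase that inhibits AKT and ATF4, had a lowest, median and highest level of 16.6, 18.5 and 22.4 CPM in 2% HS and of 2.35, 4.69 and 7.62 CPM in MET+LEU. The groups did not overlap, and the log2 fold change was -1.98 ± 0.24 (SE, edgeR adjusted p = 2.0e-07). Cth, which makes cysteine from cystathionine, fell by 1.68 (SE 0.20), from 3.74 ± 0.800 to 1.15 ± 0.240 CPM. Fgf21, a hormone that stressed muscle secretes, fell by 1.27 (SE 0.11), from 39.4 ± 4.01 to 16.2 ± 3.38 CPM, and Chac1, a glutathione-degrading enzyme named for its window, fell from 32.9 ± 2.35 to 14.6 ± 2.57 CPM. Asns (asparagine synthetase) fell by 0.62 and Mthfd2, a mitochondrial folate enzyme, by 0.90. Atf4 itself had 268 CPM in 2% HS and 254 CPM in MET+LEU, a difference of -0.08 that missed the threshold (adjusted p = 0.066).

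Of the 29 stress response genes, 20 were lower in SD vs. 2% HS (median -0.23), beside 13.9% of all genes tested. In MET+LEU vs. SD 14 were lower and 3 higher (median -0.17), or 11 and 3 without MET+LEU replicate 6. The shares of all genes tested were 7.80% and 10.6% with that library. Trib3 was at 7.98 ± 3.54 CPM in SD, a mean between those of the other groups. Its SD libraries ran from 4.16 to 13.5 CPM and overlapped those of MET+LEU. In MET+LEU vs. SD it fell by 0.73 (edgeR adjusted p = 0.049), a call lost without MET+LEU replicate 6 (adjusted p = 0.12). Gdf15, a stress hormone of the TGF-beta family, fell by 1.90 vs. 2% HS (SE 0.22), from 5.52 ± 1.29 to 1.46 ± 0.353 CPM. Erfe, the myokine erythroferrone, which lowers hepcidin, fell by 1.89 vs. 2% HS (SE 0.13), and by 0.84 in MET+LEU vs. SD (edgeR adjusted p = 2.5e-05).

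Other genes with the largest falls had other roles. Gpr39, a zinc-sensing receptor at chr1:125676995-125873862 (plus strand), ran from 3.72 to 5.08 CPM in 2% HS with a median of 4.27 and from 0.401 to 1.19 CPM in MET+LEU with a median of 0.506. It fell by 2.75 (SE 0.23), the largest fall among protein-coding genes of at least 1 in mean log2 CPM with no overlap. Edn1, the vasoconstrictor endothelin 1, fell by 2.12. Vmn1r43, annotated as a vomeronasal receptor, fell by 2.30 at levels of a few CPM. Klf15, a glucocorticoid-induced factor of muscle metabolism, fell by 1.91, from 2.48 ± 0.524 to 0.655 ± 0.299 CPM.

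Extracellular matrix genes were higher more often than the background. Of 44 matrix glycoprotein and proteoglycan genes tested, 32 rose and 7 fell (median 0.38), and of 32 collagen chains 20 rose and 4 fell (median 0.42). Without MET+LEU replicate 6 these counts were 31 and 7, and 19 and 3. Dpt (dermatopontin, a collagen-binding matrix protein) at chr1:164796644-164824266 (plus strand) had a lowest, median and highest level of 4.95, 5.86 and 6.32 CPM in 2% HS and of 45.3, 49.2 and 52.2 CPM in MET+LEU. The log2 fold change was 3.09 ± 0.07 (SE, edgeR adjusted p = 1.5e-36), an 8.52-fold rise, and 3.08 without replicate 6. Thbs2, the matricellular protein thrombospondin 2, ran from 72.8 to 92.9 CPM in 2% HS with a median of 78.5 and from 323 to 378 CPM in MET+LEU with a median of 362. It rose by 2.14 (SE 0.05), and Omd, a small leucine-rich proteoglycan, rose by 2.15 (SE 0.15).

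Among the collagens, Col12a1, which coats fibrils, rose by 1.38 (SE 0.04), from 1283 ± 30.4 to 3339 ± 203 CPM, and Col15a1, a basement membrane collagen, by 2.17 (SE 0.20), from 1.29 ± 0.546 to 5.62 ± 0.492 CPM. Col14a1, a relative of Col12a1, fell by 1.47 (SE 0.14), from 8.71 ± 1.09 to 3.12 ± 0.715 CPM. The members that fell also included the basement membrane genes Nid1 (by 0.46), Nid2 (by 0.63), Hspg2 (by 0.35) and Col4a5 (by 0.34), whose call was lost without MET+LEU replicate 6 (adjusted p = 0.055). Sparcl1, a matricellular protein, fell by 1.32. In SD vs. 2% HS 28 of the matrix genes and 19 of the collagens were higher, with medians of 0.46 and 0.37. Among all genes tested, 13.9% were higher there. In MET+LEU vs. SD the medians were 0.03 and -0.02.

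Fibroblast markers rose beside them. Their summed level ran from 13.8 to 15.7 CPM in 2% HS and from 26.3 to 31.1 CPM in MET+LEU, and all 4 tested markers were higher (Pdgfra by 0.88, Col15a1 by 2.17, Pi16 by 0.57 and Ly6a by 0.44). Col15a1 is also on the collagen list, so its rise is counted in both. Pi16 and Ly6a were low, at most 1.95 and 5.16 CPM in any of the 12 libraries. Pi16 missed the threshold without MET+LEU replicate 6 (adjusted p = 0.055). Of the defining markers, Tcf21 had 0 counts in all 12 libraries and Dpp4 stayed under 1 CPM. Their part in the rise of the matrix genes was not tested.

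The genes with the largest rises outside the matrix were mostly secreted factors, receptors and enzymes. Dkk2, a secreted Wnt modulator at chr3:132085292-132180304 (plus strand), had a lowest, median and highest level of 0.253, 0.396 and 0.899 CPM in 2% HS and of 5.48, 6.52 and 8.91 CPM in MET+LEU. It rose by 3.75 (SE 0.21, edgeR adjusted p = 8.4e-20), the largest rise among protein-coding genes that met the same conditions as Gpr39. Its level in SD was 3.72 ± 0.756 CPM, and it was higher in MET+LEU than in SD by 0.88 (edgeR adjusted p = 3.7e-05). Akr1c14, a hydroxysteroid dehydrogenase at chr13:4049011-4090688 (plus strand), rose from 3.02 ± 0.279 to 33.0 ± 1.58 CPM, by 3.45 (SE 0.09).

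Slc6a2, the noradrenaline transporter, ran from 0.823 to 2.13 CPM in 2% HS with a median of 1.68 and from 11.6 to 15.7 CPM in MET+LEU with a median of 13.7, and rose by 3.09 (SE 0.14). Oxtr, the oxytocin receptor, rose by 2.82 (SE 0.12), and Aplnr, the apelin receptor, by 2.82 (SE 0.18). Enpp2, the secreted enzyme autotaxin that makes lysophosphatidic acid, rose by 2.83 (SE 0.19), and Adh1, an alcohol and retinol dehydrogenase, by 2.93 (SE 0.26). Gm12248, annotated as protein-coding, rose by 3.45, Ly6d, a surface protein of the LY6 family, by 3.23, and Ptpn5 and Lrrc55, a tyrosine phosphatase and a potassium channel subunit, by 2.74 and 2.72. The 12 genes with the largest rises included none that overlapped between groups, by the rule that named them. MET+LEU vs. SD did not pass the test at Slc6a2 (-0.03), Oxtr (0.07) and Aplnr (0.05, with 5.66 ± 0.811 CPM in SD).

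**Figure D3:**
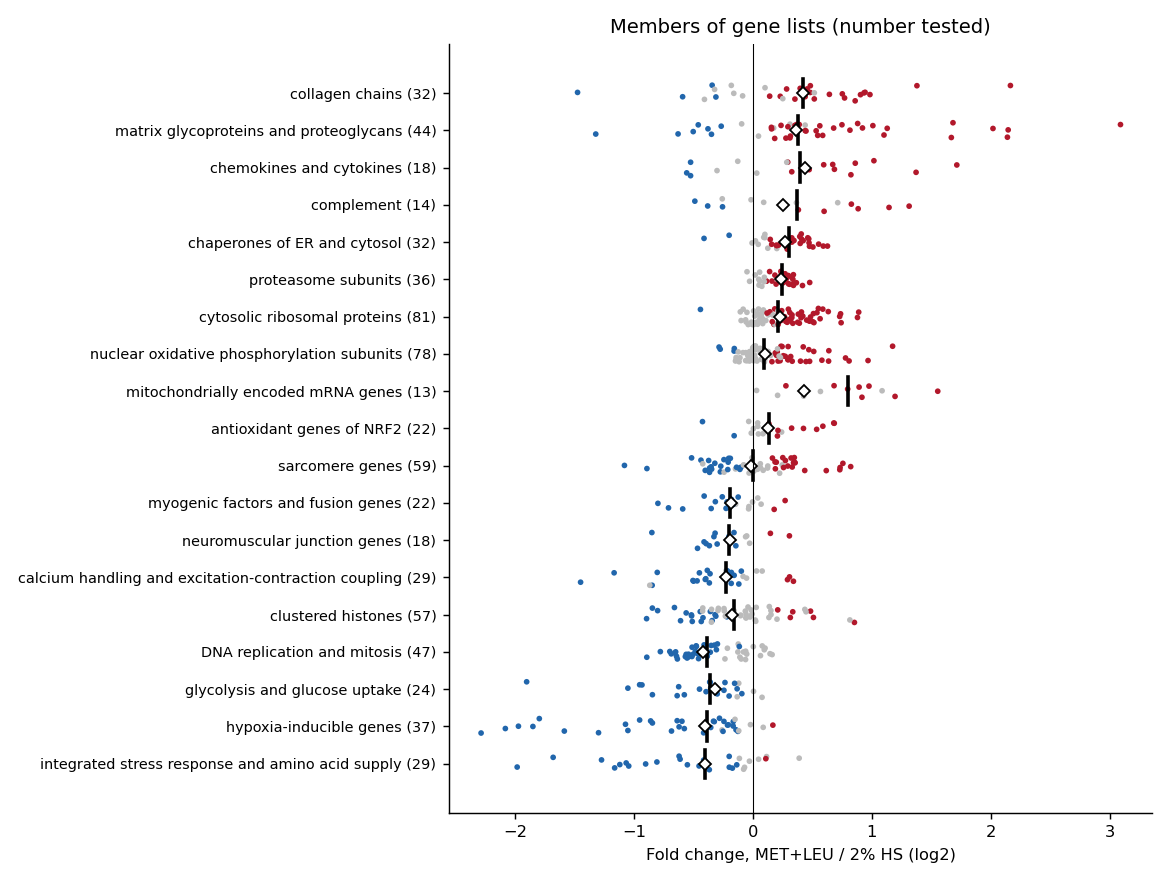
Each point is the log2 fold change of a gene in MET+LEU vs. 2% HS (red, higher, blue, lower, grey, not called), the thick bar is the median of the list and the diamond the median without MET+LEU replicate 6. Matrix lists lie mostly to the right, with collagens at a median of 0.42, and hypoxia, glycolysis and stress response lists to the left, while the median of the mitochondrially encoded genes moves from 0.80 to 0.43 without that library.

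Chemokine and cytokine genes were higher at 61.1% and lower at 16.7%, against 22.1% and 20.3% of all genes tested. Complement genes were higher at 42.9% and lower at 21.4%, the latter close to the share of all genes. Of 18 chemokine and cytokine genes tested, 11 rose and 3 fell (median 0.40), and of 14 complement genes 6 rose and 3 fell (median 0.38, or 0.26 without MET+LEU replicate 6). Cxcl16, a chemokine with a transmembrane form, rose by 1.37 (SE 0.17), from 1.47 ± 0.231 to 3.81 ± 0.413 CPM, and Cxcl1, a neutrophil attractant, rose by 1.72 while remaining under 1 CPM on average. C1s1, a protease of the classical complement pathway, rose by 1.31 (SE 0.06), from 14.2 ± 1.58 to 35.3 ± 2.91 CPM, and its partner C1ra by 0.89. Clu (clusterin, an extracellular chaperone) rose by 1.15. Of 33 interferon response and antigen presentation genes, 11 rose and 2 fell (median 0.14), with Ifit1 at 1.12 above 2% HS and Zbp1, a nucleic acid sensor, lower by 1.05. Without MET+LEU replicate 6 the counts of higher and lower members were 11 and 4 for chemokines, 6 and 4 for complement and 10 and 2 for interferon genes.

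Lipid oxidation genes were split. Of 28 tested, 10 rose and 8 fell (35.7% and 28.6%, median 0.03), against 22.1% and 20.3% of all genes tested. Without MET+LEU replicate 6, 11 rose and 7 fell. Cpt1a, which admits long-chain fatty acids to mitochondria in liver and in many cultured cells, had a lowest, median and highest level of 41.0, 42.6 and 45.9 CPM in 2% HS and of 84.3, 91.4 and 97.4 CPM in MET+LEU, a rise of 1.08 (SE 0.05) with no overlap. Angptl4, an inhibitor of lipoprotein lipase, rose by 1.76 (SE 0.07) and Lpl, the lipase itself, from 27.3 ± 1.40 to 61.0 ± 1.69 CPM. Ppargc1a, the coactivator of mitochondrial biogenesis, fell by 1.02 and Ucp3 by 0.77, and the muscle isoform Cpt1b fell by 0.85 at levels under 1 CPM, a call lost without MET+LEU replicate 6 (adjusted p = 0.069). Txnip, a glucose-responsive inhibitor of thioredoxin and glucose uptake, rose by 1.63 (SE 0.09), from 38.1 ± 3.89 to 118 ± 9.74 CPM.

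Contractile genes did not move as a block. Of 59 sarcomere genes tested, 20 rose and 21 fell, against background shares of 22.1% and 20.3%. Set against 2% HS, SD had 4 higher and 29 lower (median -0.22), beside 13.9% of all genes tested in either direction. Against SD, MET+LEU had 29 higher and 1 lower (median 0.18), or 31 and 1 without MET+LEU replicate 6. The shares of all genes tested were 10.6% and 7.80% with that library. The fast troponin genes Tnnt3, Tnni2 and Tnnc2 rose by 0.73, 0.73 and 0.76 vs. 2% HS, or by 0.55, 0.52 and 0.56 without that library. Xirp2, an actin-binding repair protein, rose by 0.82 (SE 0.13), while Tmod4, which caps thin filaments, fell by 1.08 (SE 0.15) and Mybpc2, fast myosin-binding protein C, by 0.89 (SE 0.15).

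The myosin heavy chain genes showed the same split. Myh1, a fast adult chain, ran from 2223 to 2488 CPM in 2% HS with a median of 2270 and from 2218 to 3132 CPM in MET+LEU with a median of 2251. The groups overlapped and the difference of 0.06 (SE 0.06) did not pass the test (adjusted p = 0.40), while in SD the level was lower (1764 ± 78.0 CPM). Myh4 likewise did not pass (0.12, SE 0.09). The embryonic chain Myh3 rose by 0.44 (SE 0.09) and the perinatal chain Myh8 by 0.32 (SE 0.07), or by 0.29 and 0.20 without MET+LEU replicate 6. Myh7, the slow chain, fell by 0.35 (SE 0.08). Myh2 rose by 0.36 (adjusted p = 0.018), a call lost without MET+LEU replicate 6 (0.25, adjusted p = 0.080), without MET+LEU replicate 1 (0.29) and without 2% HS replicate 6 (0.30).

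Calcium handling, fusion and synapse genes were lower more often than the background. Of 29 genes of calcium handling and excitation-contraction coupling, 20 fell and 3 rose (median -0.22). Atp2a1, the fast calcium pump SERCA1, had a lowest, median and highest level of 1361, 1441 and 1526 CPM in 2% HS and of 683, 799 and 884 CPM in MET+LEU, a fall of 0.85 (SE 0.05) with no overlap. Pvalb (parvalbumin, a calcium buffer) fell by 1.45 (SE 0.12) and Sln (sarcolipin, a pump inhibitor) by 1.17 (SE 0.17). Of 22 myogenic factor and fusion genes 14 fell and 2 rose (median -0.19), led by Myf6, Mymx, the fusion micropeptide, and Cdh15 (M-cadherin), which fell by 0.80, 0.71 and 0.59. Mymx went from 56.2 ± 5.62 to 34.3 ± 3.11 CPM, with 42.9 ± 4.86 CPM in SD. Of 18 neuromuscular junction genes 12 fell and 2 rose (median -0.20), with Scn4a, the muscle sodium channel, lower by 0.85 (SE 0.05). Without MET+LEU replicate 6 the counts of these 3 lists stayed at 20 and 3, 14 and 2, and 12 and 2.

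Genes of DNA replication and mitosis were lower. Of 47 tested, 30 fell and 0 rose (median -0.38), and 32 fell and 0 rose without MET+LEU replicate 6. Ccnb1, the mitotic cyclin B1, had a lowest, median and highest level of 8.85, 10.1 and 10.9 CPM in 2% HS and of 4.37, 5.57 and 6.12 CPM in MET+LEU. It fell by 0.89 (SE 0.11, edgeR adjusted p = 1.8e-09) with no overlap. The mitotic kinase gene Aurka fell by 0.78 (SE 0.17), Bub1, a spindle checkpoint kinase, by 0.70 (SE 0.11) and Top2a by 0.50 (SE 0.08). Replication genes such as Pcna (0.10), Mcm6 (0.10) and Cdc6 (0.16) did not pass the test.

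In SD the pattern of these genes differed from that in MET+LEU. There 12 of 47 members were higher and 1 lower than in 2% HS (median 0.11), beside 13.9% of all genes tested in either direction. In MET+LEU vs. SD 39 were lower and 0 higher (median -0.46), beside 7.80% and 10.6% of all genes tested. Ccnb1 was at 10.0 ± 0.857 CPM in SD. Of 57 clustered histone genes, 17 fell and 6 rose in MET+LEU vs. 2% HS (median -0.16), or 15 and 6 without MET+LEU replicate 6. In SD vs. 2% HS 19 were higher and 0 lower, and 33 were lower and 2 higher in MET+LEU vs. SD. Hist1h2bc rose by 0.85, whereas Hist4h4 fell by 0.89 and Hist1h2bk by 0.84, and reads of near-identical histone copies may have been split between genes. The summed level of the dividing-cell markers ran from 154 to 185 CPM in 2% HS and from 113 to 144 CPM in MET+LEU, with 5 of 6 lower and 0 higher. Of the reserve myoblast markers 4 of 8 were lower and 1 higher.

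**Figure D4:**
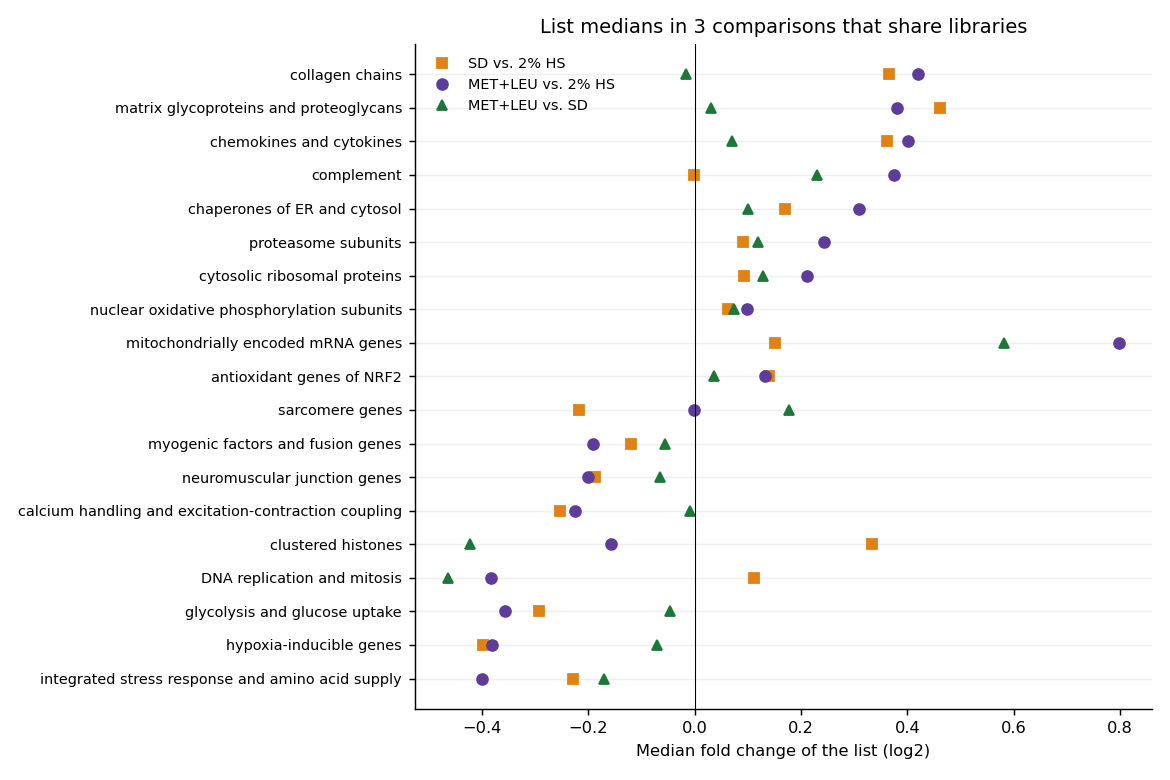
Symbols are the median log2 fold change of each list in SD vs. 2% HS (squares), MET+LEU vs. 2% HS (circles) and MET+LEU vs. SD (triangles), 3 comparisons that share libraries. For DNA replication and mitosis the square is at 0.11, the circle at -0.38 and the triangle at -0.46, whereas for hypoxia-inducible genes they are at -0.40, -0.38 and -0.07.

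Of 27 p53 target genes and CDK inhibitors, 14 rose and 4 fell (median 0.13). Cdkn1a, the CDK inhibitor p21, rose by 0.27 (SE 0.04), from 1766 ± 73.9 to 2123 ± 129 CPM, with a fall of 0.17 in MET+LEU vs. SD. Fas, a death receptor, rose by 0.74 (SE 0.09), while the apoptosis gene Bbc3 fell by 0.62 and Ddit4l by 0.78. Trp53 differed by -0.05 (adjusted p = 0.44) and Pdlim4, an actin-associated LIM protein, by -0.09 (adjusted p = 0.082). Cdkn2c, another CDK inhibitor, was at 12.3 ± 1.01 and 12.2 ± 1.40 CPM (adjusted p = 0.99). The groups overlapped at these 3 genes.

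Proteasome, chaperone and ribosomal protein genes were often higher, by small amounts. The other lists of breakdown genes, autophagy and lysosome genes and muscle ubiquitin ligases and calpains, were mixed and are given below. Of 36 proteasome subunits tested, 26 rose and 0 fell (median 0.24), of 32 chaperones of ER and cytosol 22 rose and 2 fell (median 0.31), and of 81 cytosolic ribosomal protein genes 45 rose and 1 fell (median 0.21). Without MET+LEU replicate 6 these were 27 and 0, 24 and 2, and 47 and 1. Psma7, a subunit of the proteasome core, ran from 63.4 to 73.6 CPM in 2% HS with a median of 69.2 and from 85.3 to 98.5 CPM in MET+LEU with a median of 87.1. It rose by 0.37 (SE 0.05) with no overlap. Calr and Pdia3, which fold glycoproteins in the ER, rose by 0.63 and 0.59. Herpud1, a gene of ER-associated degradation, fell by 0.41.

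The ribosomal protein genes with the largest rises leaned on MET+LEU replicate 6. Rpl19 ran from 348 to 417 CPM in MET+LEU replicates 1 to 5 and stood at 687 CPM in replicate 6, against 216 to 249 CPM in 2% HS. Its rise was 0.88 (SE 0.11) with that library and 0.69 without it. Rpl36a rose by 0.89 and 0.78, and these genes have many processed copies that could share reads. SD had 9 of 81 ribosomal protein genes above 2% HS, beside 13.9% of all genes tested. MET+LEU had 32 of 81 above SD with and without replicate 6, beside 10.6% and 7.58% of all genes tested. Of 44 translation factor genes, 21 rose and 6 fell (median 0.09), or 18 and 7 without replicate 6 (median 0.08). Eif3j1 rose by 0.73 (0.55 without replicate 6).

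Of 78 nuclear genes of oxidative phosphorylation, 31 rose and 4 fell (median 0.10), and 30 and 4 without MET+LEU replicate 6. Ndufa13, a complex I subunit, rose by 1.18 (SE 0.12), from 36.8 ± 2.06 to 83.4 ± 18.2 CPM, and Cox6c, a subunit of cytochrome c oxidase, by 0.97 (SE 0.11), or by 1.04 and 0.81 without replicate 6. Of the 13 mitochondrially encoded mRNA genes 8 rose and 0 fell, with a median of 0.80. Without that library 6 rose and the median was 0.43. mt-Nd1 ran from 2127 to 2725 CPM in 2% HS, from 3939 to 4160 CPM in MET+LEU replicates 1 to 5, and was at 8882 CPM in replicate 6. Its rise was 0.98 with and 0.71 without that library. mt-Co2 rose by 1.55 (adjusted p = 0.019), but by 0.41 without replicate 6 (adjusted p = 0.35), where the call was lost.

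The mitochondrial ribosomal RNA genes mt-Rnr2 and mt-Rnr1 rose by 3.31 and 2.85 with MET+LEU replicate 6 and by 1.55 and 1.34 without it. mt-Rnr2 ran from 665 to 1231 CPM in 2% HS, from 2012 to 3528 CPM in the other MET+LEU libraries, and was at 42476 CPM in replicate 6. The counts that remain on ribosomal RNA also depend on the depletion step, and the share of nuclear ribosomal RNA was higher in MET+LEU too. The part of these shares in the rises of the mitochondrial, ribosomal protein and oxidative phosphorylation genes was not tested. Mir6236 rose by 2.69, or 1.79 without replicate 6. Among other genes not annotated as protein-coding, Gm11243 fell by 2.04, 5430431A17Rik by 1.81 and Gm28876 by 1.35, and without a stated strand setting reads from overlapping or antisense genes cannot be told apart.

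**Figure D5:**
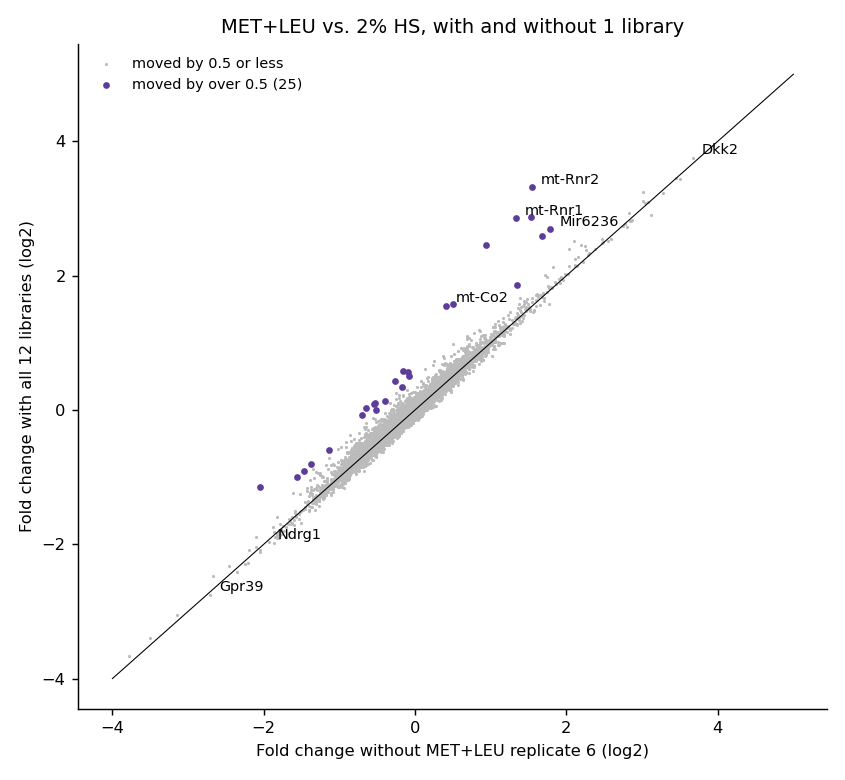
Each point is a gene, with its log2 fold change without MET+LEU replicate 6 on the x axis and with all 12 libraries on the y axis. Most genes lie on the line of equal values, and 25 genes, among them mt-Rnr2, mt-Rnr1, mt-Co2 and Mir6236, moved by more than 0.5.

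Metal and antioxidant genes also differed. Of 29 genes of iron, zinc and selenium handling, 12 fell and 3 rose (median -0.09), or 11 and 3 (median -0.052) without MET+LEU replicate 6. Slc40a1, the iron exporter ferroportin, fell by 1.25 (SE 0.07), from 46.2 ± 1.72 to 19.4 ± 1.75 CPM, Gpx3, a secreted selenoprotein peroxidase, by 1.01 (SE 0.06), from 452 ± 25.6 to 224 ± 9.82 CPM, and the metallothionein gene Mt1 by 0.46. Of 22 antioxidant genes under NRF2, 11 rose and 2 fell (median 0.13, and 10 and 2 without MET+LEU replicate 6), with Gstm1 and Gsta4, glutathione transferases, both at 0.68 and Sod3, the extracellular superoxide dismutase, at 0.59. Hmox1, which breaks down heme, fell by 0.42.

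Growth factor and hormone pathways were mixed, against 22.1% higher and 20.3% lower among all genes tested. Of 26 TGF-beta, activin and myostatin genes 8 rose and 7 fell, or 9 and 7 of 27 without MET+LEU replicate 6. Of 22 YAP targets 7 rose and 4 fell, and of these Ccn2 fell by 0.86 while Ankrd1 rose by 0.77 (0.68 without MET+LEU replicate 6). Of 16 IGF system genes 7 rose and 5 fell (7 and 6 without MET+LEU replicate 6), with Igfbp6, an IGF2-binding protein, higher by 0.88 and Pappa, a protease of IGF-binding proteins, lower by 1.18. Of 15 retinoid genes 7 fell and 2 rose (6 and 5 without MET+LEU replicate 6), among them Dhrs3, a retinal reductase, and Cyp26a1, a retinoic acid hydroxylase, both lower by 1.05. Of 13 glucocorticoid targets 5 fell and 3 rose, with Klf9 lower by 0.89 and Hsd11b1, the enzyme that activates glucocorticoids, higher by 1.29.

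The remaining lists had members in both directions, against 22.1% higher and 20.3% lower among all genes tested. Autophagy and lysosome genes (17.9% and 23.1%) were near these shares. In cholesterol synthesis 7 of 26 rose and 7 fell (5 and 7 without MET+LEU replicate 6), with Hmgcs1, an early enzyme, higher by 0.45. Fatty acid synthesis had 3 higher and 5 lower of 15, autophagy and lysosome genes 7 and 9 of 39, and BMP and Id genes 9 and 5 of 25. Muscle ubiquitin ligases and calpains had 4 and 2 of 18, matrix proteases and their inhibitors 9 and 9 of 22, and insulin receptor substrate and FoxO target genes 7 and 9 of 23. Without MET+LEU replicate 6, autophagy and lysosome genes had 9 and 9, and BMP and Id genes 6 and 5 of 26. The counts of fatty acid synthesis, ubiquitin ligases, matrix proteases and FoxO targets stayed the same. Among SRF and actin genes 12 of 25 fell and 2 rose (median -0.10), or 13 and 2 without MET+LEU replicate 6 (median -0.18). Immediate early genes had 8 higher and 4 lower of 26, with Jun at 0.52 above 2% HS, and ERK feedback and target genes 6 and 3 of 16, with Etv1 at 0.86. Without MET+LEU replicate 6 these were 9 and 4, and 6 and 2.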

How the data were processed

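The deposited values were raw counts per gene that the authors made from rRNA-depleted stranded libraries, with cutadapt 1.16, STAR 2.7.6a, featureCounts 1.6.3, GRCm38 and DESeq2 1.30.1 named in the submitters' processing notes. The annotation release, strand setting and treatment of multimapping reads are not given in the sources used here. Symbols and positions came from GENCODE M21 (55227 of 55487 identifiers matched, and the other 260 held 0.00434% of counts).

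Counts were analysed in R 4.3.3 with edgeR 4.0.16 (filterByExpr with minimum count 10 and minimum total 15, TMM scaling, a mean for each of 5 groups over 30 libraries, robust quasi-likelihood test, two-sided, Benjamini-Hochberg adjustment over all genes tested, adjusted p under 0.05). CPM were scaled by TMM. The fit without MET+LEU replicate 6 used 29 libraries. The common biological coefficient of variation was 0.0709, and no pair of libraries of a group agreed within sampling noise (lowest chi-square per degree of freedom 2.48). For a gene without counts the upper limit was set at 3 counts, or 0.153 to 0.235 CPM, for counting error alone. Promoter windows came from RefSeq (GRCm38.p6).

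Genes named were the 12 protein-coding and 3 other genes with the largest change in each direction (adjusted p under 0.05, mean log2 CPM of at least 1, no overlap of libraries), up to 3 called members with the largest change in each list, and 10 genes that the study shows. Some genes that this rule names are not reported here. Any other gene in the text was picked with its values in view. The members, lists and tests were chosen with earlier results of these data known. Alternatives were DESeq2 size factors, upper-quartile scaling, removal of ribosomal RNA genes, DESeq2 1.42.0, limma-voom 3.58.1, other count filters, the 12 libraries alone, each library left out, a replicate block, no robust option, a threshold of 0.01 and, added after seeing the data, corrections for GC content and transcript length.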

Additional observations from a re-analysis of the deposited data

Results flagged for a closer look

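In 380 groups of 6 libraries, 48 had a highest or lowest library far from the others, and 36 of these were MET+LEU replicate 6. About 1 in 20 groups would be flagged if values were independent and normal. The groups reuse the same 12 libraries, so this rate is a guide only and not a test. In that library the shares of nuclear ribosomal RNA (5.85%), mitochondrial ribosomal RNA (7.64%) and mitochondrial protein-coding genes (5.17%) stood far above the others, with mt-Rnr2 at 42476, mt-Rnr1 at 52730, mt-Nd1 at 8882, mt-Nd2 at 5501, mt-Co2 at 79.6 and Mir6236 at 530.4 CPM. It was also highest at Rpl19 (687 CPM), Rpl36a (168), Eif3j1 (77.6), Eif5b (251), Psmd7 (118), Psmc1 (153), Ndufa13 (119), Cox6c (347), Ndufa5 (45.8), Calr (1062), Pdia3 (342), Acsl3 (386), Jun (279), Ankrd1 (553), Col15a1 (6.56) and Hist1h2bc (92.0), and at Myh1 (3132), Myh3 (2050), Myh4 (128) and Myh8 (1125). It was apart from the others at Tfeb (21.9 CPM), Hist4h4 (6.399), Colq (15.1) and Lrrc55 (2.51). Its median log2 deviation from the 2% HS mean was 1.85 for mitochondrially encoded mRNA genes, -0.61 for hypoxia-inducible genes and -0.41 for retinoid genes.

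Other libraries stood apart singly. MET+LEU replicate 2 did so at Gpr39 (1.19 CPM), Psma7 (98.5 CPM) and the median of the matrix genes (0.51). In 2% HS this held for Slc2a1 (153 CPM) and Myh4 (98.2 CPM) in replicate 1, Erfe (16.01 CPM) and Rapsn (117 CPM) in replicate 3, Ptpn5 (1.15 CPM), Colq (31.5 CPM) and the nuclear ribosomal RNA share (0.702%) in replicate 5, and Angptl4 (14.04 CPM) and the median of fatty acid synthesis (0.040) in replicate 6.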

How the results depend on the processing

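Counts of genes higher (3057 to 3573) and lower (2968 to 3674) stayed within 1.5 times the reported ones in every alternative at the same threshold, but upper-quartile scaling put 3057 higher and 3674 lower, and more genes were also lower than higher without ribosomal RNA genes (3343 and 3386) and when any of 9 of the 12 libraries was left out (3150 to 3456 higher and 3003 to 3330 lower over all 12), so which direction had more genes was not stable. The 501 genes changed at least 2-fold became 908 with more than 5 counts in total and 204 with at least 10 counts in every library, and 502 to 576 with 1 library left out. Of 147 named genes, 144 kept direction and call throughout. mt-Co2 lost its call with limma-voom (0.53) and in a model of the 12 libraries (1.55), and Myh2 in a model of the 12 libraries (0.35). Both mt-Co2 and Myh2 lost it at adjusted p under 0.01. Pdlim4 gained a call with upper-quartile scaling (-0.12). Medians moved as follows. Under upper-quartile scaling they were -0.041 for fatty acid synthesis, -0.13 for SRF and -0.042 for YAP targets. Under limma-voom they were -0.041 for fatty acid synthesis, -0.17 for SRF, 0.49 for chemokines and -0.059 for iron, zinc and selenium. With more than 5 counts they were 0.32 for collagens, 0.062 for matrix proteases, 0.28 for chemokines and -0.11 for glucocorticoid targets, and chemokines had 0.32 with 10 counts in every library and 0.32 in the 12-library model. Both groups alone without MET+LEU replicate 6 gave -0.046 for fatty acid synthesis, -0.17 for SRF, 0.15 for complement and -0.044 for iron, zinc and selenium. The GC correction gave -0.049 for fatty acid synthesis and 0.023 for YAP targets, the latter -0.016 as reported. With 1 library left out the ranges were -0.053 to -0.019 for fatty acid synthesis, -0.18 to -0.076 for SRF, -0.045 to 0.0025 for YAP targets, 0.31 to 0.49 for chemokines, -0.14 to -0.052 for iron, zinc and selenium, -0.12 to -0.047 for glucocorticoid targets and -0.32 to -0.22 for calcium handling. The cause of these shifts was not tested. Same-numbered libraries did not deviate together (r from -0.09 to 0.14, and 2 of 6 correlated best with their own number), and a replicate block gave 3534 higher, 3289 lower and 498 genes at least 2-fold, and took the call from mt-Co2 (1.30).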
